A study of Homo sapiens with 2 samples.

Results

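The genes described here are 33 genes for heterogeneous nuclear ribonucleoproteins (hnRNPs), polypyrimidine tract binding proteins (PTBPs), poly(C) binding proteins (PCBPs) and related RNA binders, of 52402 gene symbols counted. They were chosen by gene symbol, with earlier ratios of the same 2 libraries in view, so their values are a description and carry no test. The cells were DLD1, a line derived from a human colorectal adenocarcinoma. One library was labelled as a HERV-R knockout and the other as wild-type control. The treatment text is the same for both and names transfection of Cas9 and guide RNA vectors with lipofectamine and hygromycin selection of colonies, while the genotypes are HERV-R Knockout and WT. The sources used here do not give which vectors the control received or whether a library came from a single clone. HERV-R is an endogenous retrovirus whose envelope protein is encoded by ERV3-1. With 1 library per group there was no replicate check, and every difference below compares 2 libraries, not 2 conditions with known spread.

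The proteins of this group coat nascent transcripts in the nucleus. Many of them repress or activate splice sites, and others carry mRNA to the cytoplasm, stabilise it or mark it for decay. Most bind RNA through RNA recognition motifs, while hnRNP K, the PCBPs, KHSRP and the FUBPs use KH domains. Several limit their own level by splicing that leads their mRNA into nonsense-mediated decay.

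The knockout-labelled library held 16406308 counts and the control 21881122, on 19380 and 19760 symbols. ERV3-1, taken as the targeted gene, had 125 counts (7.62 CPM, counts scaled to a library total of 1e+06) in the knockout-labelled library and 127 counts (5.80 CPM) in the control. A count over the whole gene cannot see a small insertion or deletion, so this neither checks nor contradicts the label. Of 11 colorectal epithelial markers, 8 were measured, and their summed level was 5978 CPM in the knockout-labelled library and 11713 CPM in the control. KRT8, KRT18 and KRT19 were at least 2-fold lower and CDX2 at least 2-fold higher, while KRT20 and CDX1 were at 0 in both libraries. KRT20 and LGALS4, which were not measured, stand on 2 rows each of the count tables. A gene listed more than once can lose reads, so their values are not read as low expression. EPCAM had 750 CPM in the knockout-labelled library and 701 CPM in the control. In the same order, CDH1 had 704 and 854 CPM, VIL1 175 and 123 CPM, and CDH17 162 and 167 CPM. The largest terms of the lower sum were KRT18 (1741 and 4967 CPM) and KRT8 (1875.5 and 4138 CPM). The sum therefore does not describe the epithelial markers as a whole. Markers of fibroblasts, blood, endothelium and neurons summed to at most 0.427 CPM per list in the knockout-labelled library and 1.10 CPM in the control. The part of the keratin difference in the values below was not tested. In bulk RNA, fewer cells of a type and less RNA per cell cannot be told apart.

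All 33 genes counted as measured, meaning that the average of both libraries reached 1 CPM. The size rule asked for a log2 ratio, knockout-labelled library over control with 1 CPM added to both, of 1 or more in either direction. Under it 3 of the 33 genes were higher (HNRNPM, HNRNPU and HNRNPAB), 0 were lower and 30 lay between. Among all 12644 measured genes 6.78% passed it upward and 5.69% downward, so 9.09% of the members is near the background. At 1.5-fold, 8 members were higher and 0 lower by library total, against 20.3% and 13.2% of all measured genes. These 8 include HNRNPH1 (log2 ratio 0.591) and HNRNPR (30 against 18 counts), which stand on 2 rows each of the count tables. The members' median log2 ratio was 0.34, against 0.12 over all measured genes, and 28 of 33 members (84.8%) lay above 0, against 58.1% of all measured genes. Most members therefore differed little, and a few differed by much.

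Scaling by TMM, by upper quartiles or by median gene ratios shifted log2 ratios by -0.12, -0.14 and -0.16 relative to the library total. With each of these, 2 members (HNRNPM and HNRNPU) passed the rule upward, against 4.75%, 4.54% and 4.30% of all measured genes. HNRNPAB then stood just under it. Members with a log2 ratio above 0 numbered 26, 26 and 25 of 33, against 50.3%, 49.0% and 47.9% of all measured genes. At 1.5-fold (log2 0.585), each of these scalings took PTBP3 (-0.699 with TMM) and HNRNPH3 (-0.587) past the rule downward. HNRNPR (0.567 with TMM) and HNRNPH1 (0.472) no longer passed it upward with any of them. The share of all measured genes past 1.5-fold was not computed with these scalings. By library total, the 95% counting interval of the CPM ratio lay wholly above 1 for 25 members and wholly below 1 for 5. It included 1 for HNRNPC, HNRNPL and PTBP2. Genes with many counts have narrow intervals. The share of all measured genes with an interval wholly above or below 1 was not computed, nor were the intervals computed with the other scalings. These intervals cover counting error only.

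**Figure D1:**
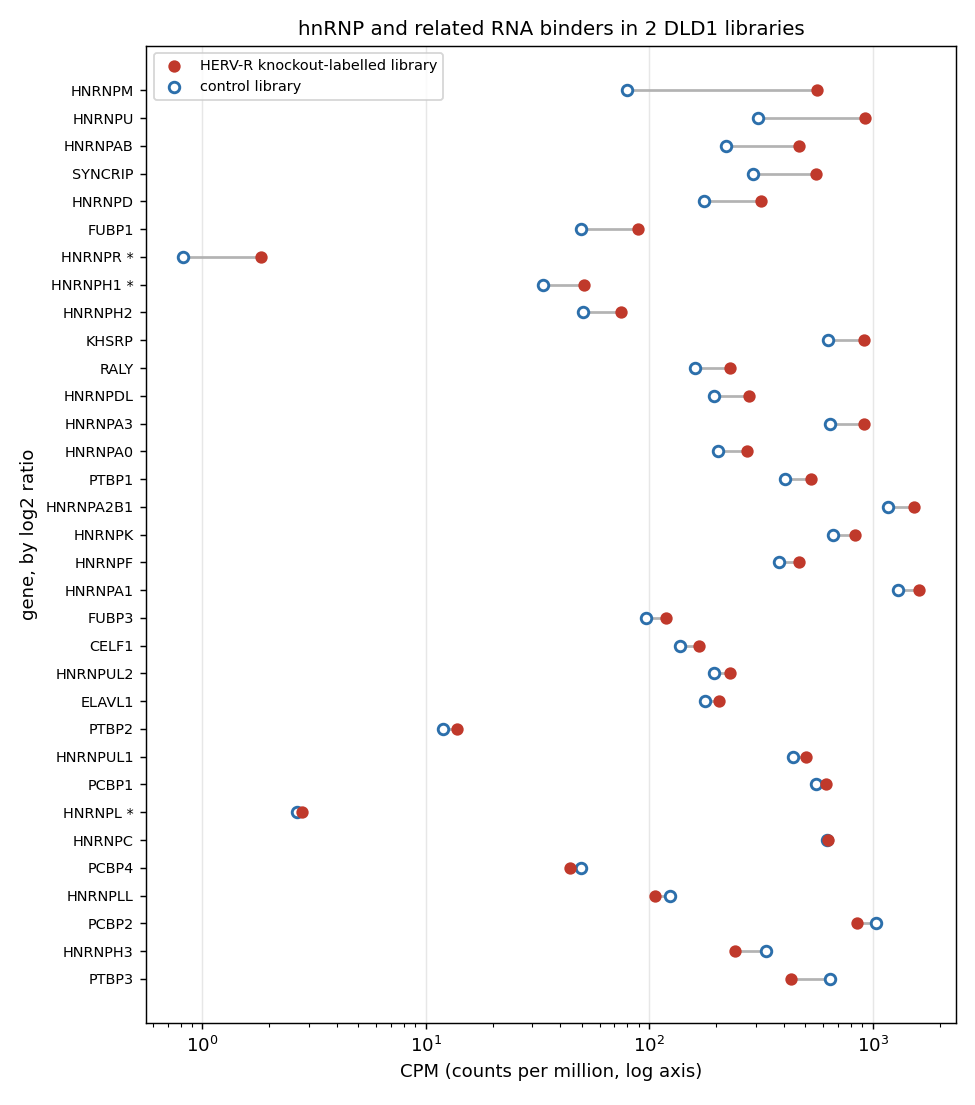
Level of each of the 33 genes in CPM on a log axis, with the knockout-labelled library as filled red points and the control as open blue points, 1 library each, ordered by log2 ratio. HNRNPM shows the widest gap (564 CPM in the knockout-labelled library, 79.8 CPM in the control), PTBP3 lies at the other end, and asterisks mark the 3 symbols that stand on 2 rows of the count tables.

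Per kilobase of annotated exon, the order of the genes within a library was much the same in both. PCBP1 was first in each, with 354 CPM per kilobase in the knockout-labelled library and 320 in the control. HNRNPA1 was second in each, with 316 and 256 CPM per kilobase. HNRNPM differed most in position, at rank 10 in the knockout-labelled library and 25 in the control, and HNRNPU (20 and 26) and HNRNPAB (3 and 9) also stood higher there. ELAVL1 stood lower in rank, at 24 in the knockout-labelled library and 18 in the control, although its level per kilobase was higher (29.7 and 25.6). PCBP2 (9 and 4) and HNRNPH3 (18 and 13) also stood lower in rank. Exon length is the union over all transcripts of GENCODE release 29, so these levels depend on how many long transcripts are annotated, most of all for HNRNPU with 22.5 kilobases. Summed, the 33 genes took 1.48% of all counts in the knockout-labelled library and 1.14% in the control, a ratio of 1.30 (95% counting interval 1.29 to 1.31). Without the 3 genes past the rule the ratio of the sums was 1.19 (1.18 to 1.197).

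HNRNPM binds GU-rich RNA and regulates alternative exons, including those of CD44 in epithelial and mesenchymal cells. It lies on the plus strand of chromosome 19 (GRCh38, 8444767 to 8489114). It had 9257 counts in the knockout-labelled library and 1747 in the control. On the CPM scale these were 564 (interval 553 to 576) and 79.8 (76.1 to 83.7), a ratio of 7.07 (6.71 to 7.44). Its log2 ratio of 2.81 ranked 1 among the 12644 measured genes with 1 CPM added, and also with 5 CPM added, but 17 with 0.1 CPM added. HNRNPM made up 3.81% of the members' counts in the knockout-labelled library and 0.6999% in the control.

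HNRNPU, also called scaffold attachment factor A, binds nuclear RNA and chromatin. Its locus is on chromosome 1, minus strand (244840638 to 244864560). It had 15203 counts (927 CPM) in the knockout-labelled library and 6754 counts (309 CPM) in the control, a ratio of 3.002 (2.92 to 3.09). Its relatives HNRNPUL1 and HNRNPUL2, which share its domain layout, did not show a difference of that size. HNRNPUL1 had 502 CPM in the knockout-labelled library and 440 CPM in the control. HNRNPUL2 had 230 and 195 CPM. HNRNPUL2 shares sequence with the read-through gene HNRNPUL2-BSCL2 (188 and 171 CPM), and the 2 rows summed gave a ratio of 1.14 (1.11 to 1.18).

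HNRNPAB, a relative of the A/B core proteins that binds both RNA and single-stranded DNA, lies on the plus strand of chromosome 5 (178204507 to 178211163). It had 7651 counts (466 CPM) in the knockout-labelled library and 4811 counts (220 CPM) in the control, a ratio of 2.12 (2.05 to 2.20). Its log2 ratio of 1.08 was the one just inside the size rule, and SYNCRIP (0.93) was just outside it. PHYKPL overlaps HNRNPAB on the other strand and had 23.0 CPM in the knockout-labelled library and 36.1 CPM in the control. The sources used here do not say whether counting used strand.

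Promoters of the 3 genes past the rule, and of PTBP3 as the gene with the lowest ratio, are shown because the data bear on their transcripts' levels. Each is the 250 bases before the annotated start from RefSeq (GRCh38.p14), read 5′ to 3′ on the gene's own strand. The gene spans given here are from GENCODE, whose starts differ from those of RefSeq, so most of the HNRNPM window and all of the PTBP3 window lie inside the GENCODE span. Capitals mark matches on either strand to any of 4 motifs. The first is the TATA box, searched as TATAAA. The next is the CCAAT motif, searched by the letters of its name. The GC box was searched as GGGCGG, and the E-box as CACGTG, which reads alike on both strands. The windows are chr19:8444725-8444974 for HNRNPM, chr1:244864544-244864793 for HNRNPU, chr5:178204283-178204532 for HNRNPAB and chr9:112333027-112333276 for PTBP3.
HNRNPM: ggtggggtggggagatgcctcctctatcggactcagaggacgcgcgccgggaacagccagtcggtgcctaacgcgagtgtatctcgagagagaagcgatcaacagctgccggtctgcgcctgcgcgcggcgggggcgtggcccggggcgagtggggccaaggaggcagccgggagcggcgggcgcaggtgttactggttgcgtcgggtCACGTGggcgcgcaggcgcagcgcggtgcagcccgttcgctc
HNRNPU: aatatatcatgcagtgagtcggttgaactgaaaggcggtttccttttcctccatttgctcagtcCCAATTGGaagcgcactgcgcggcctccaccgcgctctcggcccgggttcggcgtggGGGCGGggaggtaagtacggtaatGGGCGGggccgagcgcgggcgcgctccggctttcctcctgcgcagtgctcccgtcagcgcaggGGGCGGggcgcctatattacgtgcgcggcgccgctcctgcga
HNRNPAB: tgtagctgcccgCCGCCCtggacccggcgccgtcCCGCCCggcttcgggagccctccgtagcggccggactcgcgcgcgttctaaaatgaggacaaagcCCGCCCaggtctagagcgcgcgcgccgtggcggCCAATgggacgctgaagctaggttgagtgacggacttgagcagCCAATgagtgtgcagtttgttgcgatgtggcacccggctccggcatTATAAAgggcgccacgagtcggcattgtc
PTBP3: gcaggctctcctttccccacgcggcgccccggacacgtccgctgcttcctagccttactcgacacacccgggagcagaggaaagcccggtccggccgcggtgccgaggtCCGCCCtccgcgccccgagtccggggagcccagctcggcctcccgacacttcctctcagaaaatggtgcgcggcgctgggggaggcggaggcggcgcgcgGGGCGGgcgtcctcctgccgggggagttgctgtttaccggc

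No motif searched was found in all of these 4 windows. The HNRNPM window holds 1 E-box and none of the other 3 motifs. HNRNPU has 3 GC boxes and 2 CCAAT matches that overlap each other on opposite strands. HNRNPAB has 3 GC boxes, 2 CCAAT boxes and 1 TATA box close to the start. PTBP3 has 2 GC boxes. A match is a description of letters and says nothing of what binds there.

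RefSeq windows were found for 30 of the 33 genes, and FUBP1, HNRNPA1 and ELAVL1 had none in the table. Over windows reaching from 250 bases before to 50 after the first listed start, a GC box stood in 26 of 30 (86.7%), against 58.5% of 15843 protein-coding genes. An E-box stood in 9 of 30 (30.0%), against 8.88%. A CCAAT box stood in 15 of 30, against 36.4%, and a TATA box in 3 of 30 (10.0%), against 9.63%. The ETS motif CCGGAAG stood in 6 of 30 (20.0%), against 14.2%, and the YY1 motif AAGATGGC in 0 of 30, against 3.91%. The NRF1 motif, which is not in capitals in the sequences shown, stood in 6 of 30 (20.0%), against 11.99%, namely in HNRNPR, HNRNPU, HNRNPA3, HNRNPAB, HNRNPK and HNRNPM. The E2F motifs TTTCCCGC and TTTGGCGC stood in 1 and 0 of 30, against 2.18% and 0.890%. The members' windows were richer in G and C (median 67.7%, against 62.7%) and in CpG (median 31.5, against 22 per window). The part of this composition in the shares of GC boxes and E-boxes was not tested. The 9 genes with an E-box ran from HNRNPH3 (log2 ratio -0.47) and HNRNPUL1 (0.19) to SYNCRIP (0.93) and HNRNPM (2.81), while PTBP3, HNRNPU and HNRNPAB have none.

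**Figure D2:**
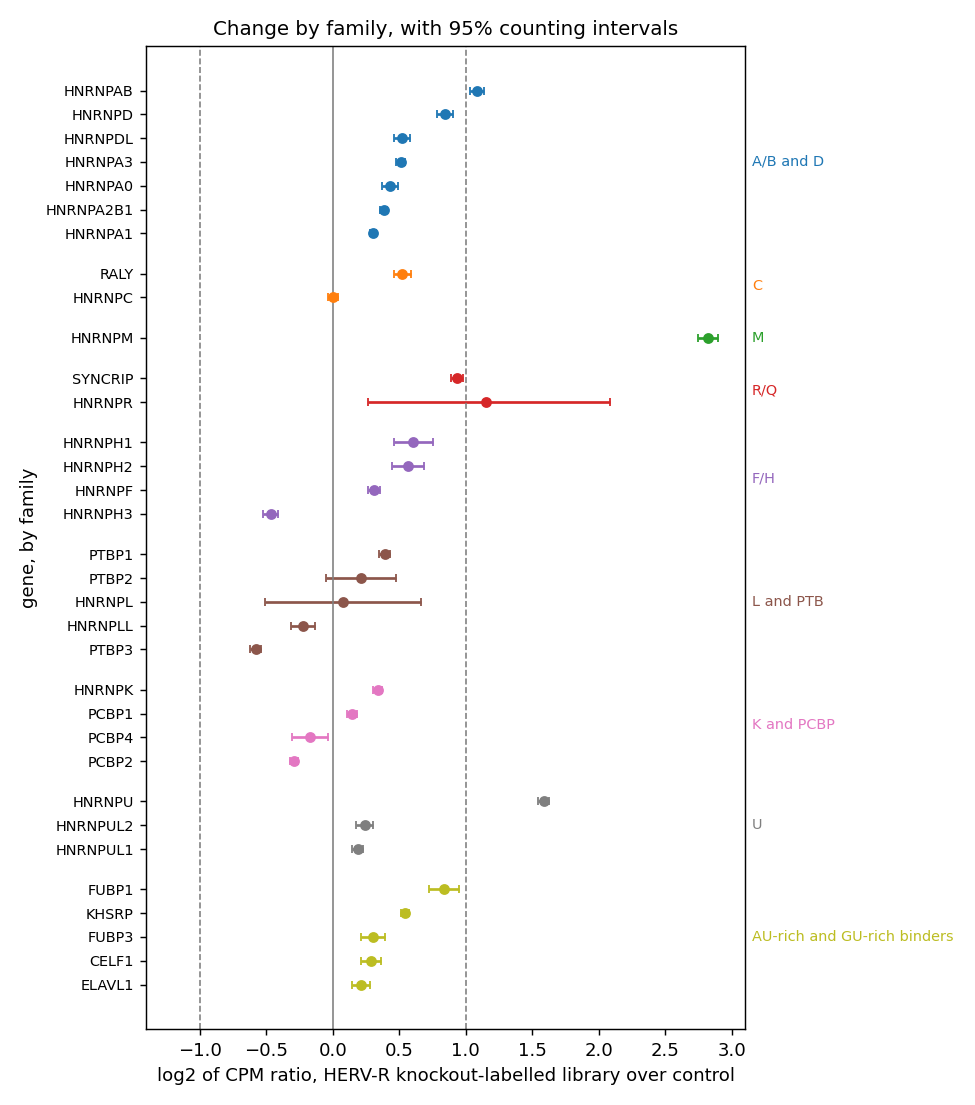
Log2 of the CPM ratio without a pseudocount, knockout-labelled library over control, for each gene grouped by family, with 95% counting intervals as bars. Dashed lines mark 2-fold, and the points of the A/B and D family all lie to the right of 0 while the L and PTB and the K and PCBP families lie on both sides.

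The A/B and D proteins include some of the most abundant hnRNPs and bind along nascent transcripts. All 7 genes of this family had a log2 ratio above 0, against 58.1% of all measured genes, and 1 (HNRNPAB) passed the rule. All 7 were also above 0 with TMM, upper quartiles and median gene ratios, against 50.3%, 49.0% and 47.9% of all measured genes. HNRNPA1, a splicing repressor, had 1609 CPM in the knockout-labelled library and 1305 CPM in the control. HNRNPA2B1, which also sorts and transports RNA, had 1526 and 1171 CPM. HNRNPA3 had 917 and 644 CPM, and the intronless HNRNPA0 had 275 and 204 CPM. HNRNPD (AUF1), which binds AU-rich elements and promotes mRNA decay, had 316 CPM in the knockout-labelled library and 176 CPM in the control (ratio 1.80; 1.73 to 1.88). Its relative HNRNPDL had 280 and 195 CPM.

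HNRNPA1 has many processed pseudogenes, so reads can be split between copies. The tables list 75 symbols of HNRNPA1 copies, 22 of them with a count, which together held 1084 counts in the knockout-labelled library and 1098 in the control. That is 4.11% and 3.84% of the counts of HNRNPA1 itself. HNRNPA1L2, an intronless copy, had 344 counts (21.0 CPM) in the knockout-labelled library and 209 counts (9.55 CPM) in the control, a ratio of 2.20 (1.84 to 2.62). HNRNPA1P7 had 20.4 and 20.8 CPM, HNRNPA1P48 12.7 and 11.7 CPM, HNRNPA1P10 8.47 and 5.53 CPM and HNRNPA1P4 1.58 and 1.65 CPM. The copies thus did not share 1 ratio. HNRNPA3P6 had 8.41 CPM in the knockout-labelled library and 7.27 CPM in the control, HNRNPCP2 3.96 and 2.47 CPM, and HNRNPCP1 2.01 and 0.503 CPM. With copies added, the ratios of HNRNPA1, HNRNPA3 and HNRNPC stayed on the same side of the rule.

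HNRNPC forms tetramers on nascent RNA and binds runs of U. It had 630 CPM in the knockout-labelled library and 628 CPM in the control (ratio 1.003; 0.978 to 1.03), and its sign turned with each other scaling. RALY, its closest relative in this group, had 230 CPM in the knockout-labelled library and 160 CPM in the control (ratio 1.44; 1.37 to 1.51). RALY-AS1, on the other strand of RALY, had 14 counts in the knockout-labelled library and 19 in the control. SYNCRIP (hnRNP Q), which binds A-rich RNA and acts in mRNA transport and translation, had 9163 counts (559 CPM) in the knockout-labelled library and 6385 counts (292 CPM) in the control. Its ratio was 1.91 (1.85 to 1.98).

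The F/H proteins bind runs of G. HNRNPF had 471 CPM in the knockout-labelled library and 380 CPM in the control, and HNRNPH3 went the other way with 242 and 334 CPM (1.38-fold lower). Both lie on chromosome 10, whose 451 measured genes had a median log2 ratio of -0.18, the lowest among the chromosomes that carry a member. Set against that median, HNRNPF stood at 0.48 and HNRNPH3 at -0.29. HNRNPH2 had 74.6 CPM in the knockout-labelled library and 50.4 CPM in the control. Its read-through row RPL36A-HNRNPH2 had 14.4 and 29.2 CPM, and the 2 rows summed gave a ratio of 1.12 (1.04 to 1.2005) in place of 1.48. The size of the HNRNPH2 difference thus depends on whether the read-through row is added. Which gene the reads of that row came from was not tested.

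HNRNPH1, HNRNPL and HNRNPR stand on 2 rows of each table, while the other 30 symbols stand on 1. HNRNPR had 30 counts on 1 row and 0 on the other in the knockout-labelled library, and 18 and 0 in the control. The row with 0 stands between LINC01355 and ZNF436, which neighbour HNRNPR on chromosome 1 in RefSeq, while the row that holds all the counts stands next to ANKRD36B, a gene on chromosome 2. The HNRNPR values therefore cannot be tied to the locus on chromosome 1. HNRNPL had 46 and 0 counts in the knockout-labelled library, and 58 and 0 in the control. HNRNPH1 had 814 and 22 counts in the knockout-labelled library, and 712 and 21 in the control. These 3 are among the 4 lowest genes per kilobase of exon in both libraries, with PTBP2 as the other. HNRNPL was at 0.411 CPM per kilobase in the knockout-labelled library and 0.389 in the control, HNRNPR at 0.211 and 0.0948. Neighbouring rows of HNRNPL show the same: ECH1 and SIRT2 also stand on 2 rows and had 1 and 4 counts in the knockout-labelled library, and 3 and 12 in the control. A gene listed more than once can lose reads that map to each copy, and whether it did here was not tested. The levels of HNRNPH1, HNRNPL and HNRNPR are therefore not read as low expression, and their ratios (1.52, 1.06 and 2.22) rest on the counts listed. The sign of HNRNPL turned with each other scaling. HNRNPR, with 30 against 18 counts, had an interval of 1.199 to 4.23.

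PTBP1 binds pyrimidine tracts and represses many exons, and its relatives PTBP2 and PTBP3 are best known from neurons and blood cells. PTBP1 had 530 CPM in the knockout-labelled library and 404 CPM in the control (ratio 1.31; 1.27 to 1.35). PTBP3 had 7079 counts (431 CPM) in the knockout-labelled library and 14101 counts (644 CPM) in the control. It was 1.49-fold lower (1.45 to 1.54), the lowest ratio of the 33 genes. Its log2 ratio of -0.58 by library total lay just outside the 1.5-fold rule, and with each other scaling it lay inside. PTBP2 had 13.8 and 11.9 CPM. HNRNPLL, which regulates CD45 exons in lymphocytes, had 106 CPM in the knockout-labelled library and 124 CPM in the control.

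The poly(C) binders went both ways by small amounts. HNRNPK, which acts in transcription, splicing and translation, had 838 CPM in the knockout-labelled library and 663 CPM in the control. PCBP1, an intronless gene whose protein also delivers iron to ferritin, had 619 and 559 CPM, and its sign turned with the median of gene ratios and when centred on the chromosome median. PCBP2 had 13916 counts (848 CPM) in the knockout-labelled library and 22740 counts (1039 CPM) in the control, 1.23-fold lower (1.1996 to 1.25). PCBP4 had 44.3 and 49.8 CPM. PCBP1-AS1, on the other strand of PCBP1, had 12 counts in the knockout-labelled library and 45 in the control, and ABHD14B, on the same strand as PCBP4, had 48.5 and 75.1 CPM. Summed, the 4 genes had 2350 CPM in the knockout-labelled library and 2312 CPM in the control, and that ratio of 1.02 fell under 1 with each other scaling.

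The 5 binders of AU-rich and GU-rich elements all had a log2 ratio above 0, against 58.1% of all measured genes, and 0 of 5 passed the rule. All 5 were also above 0 with TMM, upper quartiles and median gene ratios, against 50.3%, 49.0% and 47.9% of all measured genes. KHSRP, which promotes decay of mRNAs with AU-rich elements and processing of some microRNAs, had 916 CPM in the knockout-labelled library and 629 CPM in the control (ratio 1.46; 1.42 to 1.49). ELAVL1 (HuR), which stabilises such mRNAs, had 206 and 178 CPM. FUBP1, a single-stranded DNA and RNA binder known for the element upstream of MYC, had 88.9 CPM in the knockout-labelled library and 49.8 CPM in the control (ratio 1.79; 1.65 to 1.93). Its relative FUBP3 had 119 and 96.5 CPM, and CELF1, which binds GU-rich elements, had 168 and 137 CPM.

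The balance within pairs of related genes does not depend on the scaling, because both genes come from the same library. Of 10 pairs, chosen by relation after the values had been seen, HNRNPU per HNRNPUL1 moved most. That count ratio was 1.85 in the knockout-labelled library and 0.701 in the control, a 2.63-fold difference (Woolf 95% interval 2.53 to 2.74). PTBP1 per PTBP3 was 1.23 in the knockout-labelled library and 0.627 in the control (1.96-fold; 1.88 to 2.04), so the pair's order by count was turned. HNRNPF per HNRNPH3 was 1.94 and 1.14, FUBP1 per FUBP3 0.747 and 0.516, and PCBP1 per PCBP2 0.730 and 0.538. HNRNPC per RALY was lower in the knockout-labelled library, at 2.74 against 3.93 (0.698-fold; 0.662 to 0.735). HNRNPA1 per HNRNPA2B1 was nearly level, at 1.05 and 1.11 (0.946-fold), and HNRNPUL2 per HNRNPUL1 at 0.459 and 0.443 (1.04-fold; 0.983 to 1.09).

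**Figure D3:**
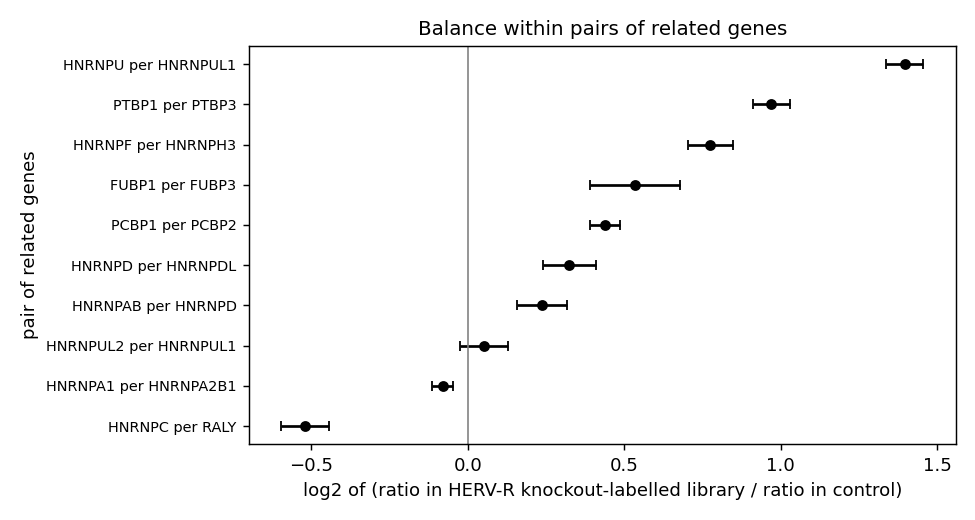
Log2 of the count ratio of 2 related genes in the knockout-labelled library divided by that in the control, for 10 pairs, with Woolf 95% intervals for counting error as bars. HNRNPU per HNRNPUL1 (2.63-fold) and PTBP1 per PTBP3 (1.96-fold) stand furthest to the right, and HNRNPC per RALY (0.698-fold) furthest to the left.

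Relatives outside the 33 genes gave a similar picture. Of 28 such genes 14 were measured, 1 was at least 2-fold higher (HNRNPA1L2) and 0 were lower, with a median log2 ratio of 0.40. With each other scaling 0 were higher. Of 35 further splicing regulators 29 were measured, 4 were higher and 1 lower, with a median of 0.50. RBM10 was 3.72-fold higher (163 CPM in the knockout-labelled library, 43.8 CPM in the control), KHDRBS3 3.05-fold and RBM5 2.27-fold, while MBNL2 was 2.20-fold lower (97.5 and 214 CPM). SLTM was the other higher gene and lost the rule with the median of gene ratios.

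Partners of hnRNPs and the decay machinery were also set beside the 33 genes. Of 18 partners 2 were higher and 0 lower (median 0.45): the RNA helicase DHX9 was 2.77-fold higher (268 CPM in the knockout-labelled library, 96.6 CPM in the control) and nucleolin (NCL) 2.39-fold (1799 and 752 CPM). With the median of gene ratios 1 partner was lower. Of 19 factors of nonsense-mediated decay and the exon junction complex, 2 were higher and 0 lower (median 0.54). These were DHX34 (2.18-fold) and RBM8A (2.05-fold), and both lost the rule with each other scaling.

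Of 24 measured factors of mRNA stability, 0 were higher and 2 lower, and 3 were lower with each other scaling. Their median was -0.11, and 8 of the 24 (33.3%) lay above the median of all measured genes (0.12). ZFP36L1 and ZFP36, which bind AU-rich elements and recruit deadenylases, were 2.28-fold lower (178 CPM in the knockout-labelled library, 405 CPM in the control) and 2.26-fold lower (29.1 and 65.8 CPM). Of 18 measured mRNAs known as targets of these binders, 0 were higher and 1 lower (median -0.04): BCL2L1, whose splicing hnRNP F/H regulate, was 3.13-fold lower (96.6 and 303 CPM). Counts per gene do not show which isoform was made.

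The SR splicing factors, which mostly activate exons where hnRNPs often repress them, form a further family of nuclear RNA binders. Of 11 measured SR genes 7 were higher and 0 lower (median 1.24), and 6 were higher with each other scaling. SRSF6 was 3.68-fold higher (223 CPM in the knockout-labelled library, 60.7 CPM in the control), SRSF2 3.28-fold and SRSF3 3.19-fold. The SR median lay above that of the 33 genes (0.34), but the difference between lists was not tested. No SR gene is among the 33.

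**Figure D4:**
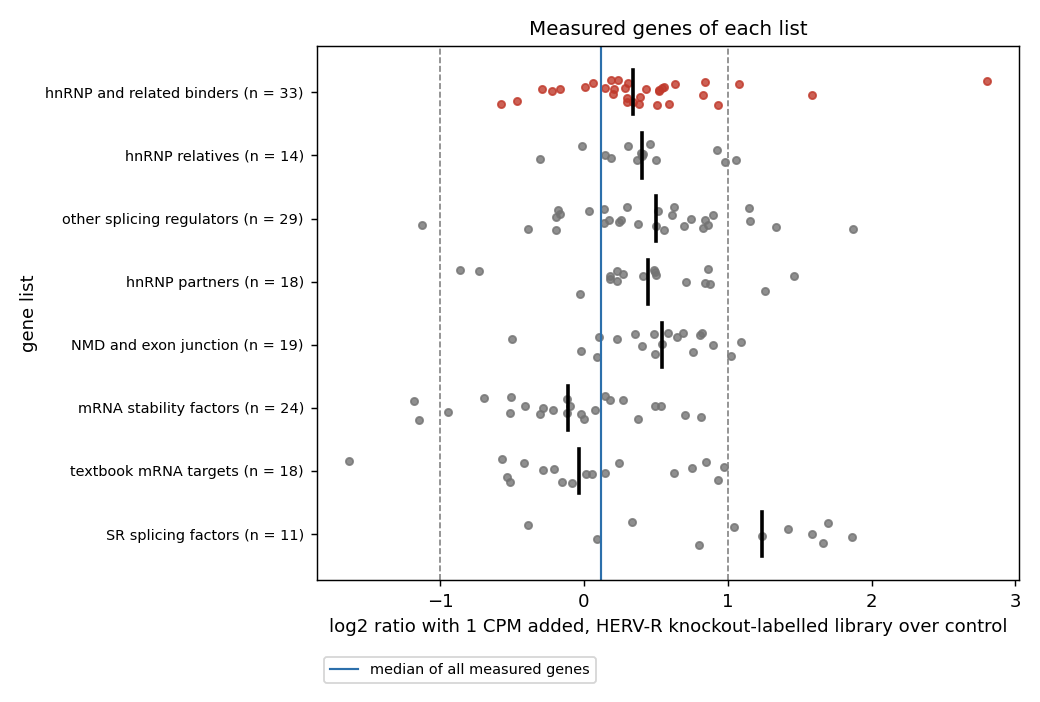
Log2 ratio with 1 CPM added, knockout-labelled library over control, for each measured gene (points) of the 33 members (red) and of 7 other lists (grey), with list medians as black bars, 2-fold as dashed lines and the median of all measured genes as a blue line. The members' median is 0.34, the SR factors' 1.24 and that of all measured genes 0.12.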

How the data were processed

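RNA was sequenced from 2 libraries of DLD1 cells, 1 labelled HERV-R knockout and 1 control. Per the labels' protocols, total RNA from Trizol went into a NEBNext Ultra II Directional library. TopHat and the build GRCh38 are named in the submitters' processing notes. Nothing in the sources used here gives the counting program, the annotation or the use of strand. The authors deposited raw counts per gene symbol, without normalization, in 58173 rows per table. Rows of 1 symbol were summed to 52402 symbols and scaled by library total to CPM. Folds are CPM ratios with exact Clopper-Pearson 95% intervals, and CPM intervals are exact Poisson. The log2 ratio had 1 CPM added to both libraries, and a gene was measured if its average reached 1 CPM. With 1 library per group no test was possible. Intervals cover counting error only, and PCR duplicates make them too narrow. A count of 0 allows up to 3 counts (0.183 CPM in the knockout-labelled library, 0.137 CPM in the control).

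The members, families and lists were chosen with earlier results of these data known. All 33 members are reported, and 1 further list was left out and is not reported here. Of each other list the up to 3 genes past the size rule with the largest log2 ratio in each direction are named, and pseudogene, -like, antisense or read-through rows of a member where either library held at least 10 counts. SLTM (outside that rule), overlapping genes, row neighbours and gene pairs were chosen after values were seen. Gene positions and exon lengths are from GENCODE release 29 (GRCh38), and promoters from RefSeq (GRCh38.p14). The ratio calculation was tested on simulated counts. Tools were Python 3.11.15 with pandas 2.3.3, NumPy 2.4.6, SciPy 1.17.1 and matplotlib 3.10.9, and R 4.3.3 with edgeR 4.0.16 and DESeq2 1.42.0, the last 2 for scaling factors only.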

Additional observations from a re-analysis of the deposited data

How the results depend on the processing

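Of 13 alternatives, 11 were planned and 2 (symbols on a single row only, and read-through rows added) were chosen after seeing the data. The count of members at least 2-fold lower was 0 in each. The count of members higher was 2 to 4 wherever the 2-fold rule was kept. It was 4 with a pseudocount of 0.1 CPM, which adds HNRNPR, and 2 with the other scalings and with ratios centred on chromosome medians, where HNRNPAB fell short. By library total it was 8 under the 1.5-fold rule, against 20.3% of all measured genes, and 1 (HNRNPM) under the 3-fold rule. For the 3-fold rule, the other pseudocounts and the ratios centred on chromosome medians, the share of all measured genes was not computed. Those counts are therefore not set against a background. The median log2 ratio of the members was 0.22 with TMM, 0.20 with the upper quartile, 0.18 with the median of gene ratios and 0.23 when centred on chromosomes, against 0.34. Over all measured genes the medians were 0.0044 with TMM, -0.015 with the upper quartile and -0.030 with median gene ratios (0.12 by library total). The sign of 30 members held in every alternative run, and that of HNRNPC, HNRNPL and PCBP1 turned in at least 1. No paired analysis was possible because each group holds 1 library. HNRNPR and HNRNPL lie under a minimum mean of 5 CPM, so 31 members were left there. HNRNPR, HNRNPL and PTBP2 are the members with the fewest counts and have the widest counting intervals. Whether HNRNPR and HNRNPL lost reads between their listed rows was not tested.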

Other observations

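Further genes overlap a member on the other strand, and some had ratios far from that of the member. TGFB1, a cytokine gene whose annotation overlaps HNRNPUL1, had 59.6 CPM in the knockout-labelled library and 202 CPM in the control (ratio 0.295; 0.275 to 0.316), while HNRNPUL1 had a ratio of 1.14. NFE2L3, a transcription factor gene that overlaps HNRNPA2B1, had 143 CPM in the knockout-labelled library and 413 CPM in the control (ratio 0.346; 0.331 to 0.363), against a ratio of 1.30 for HNRNPA2B1. CBX3, a heterochromatin protein gene at the same locus, had 406 and 395 CPM. RUFY2, which overlaps HNRNPH3, had 21.4 CPM in the knockout-labelled library and 32.2 CPM in the control (ratio 0.664), against a ratio of 0.723 for HNRNPH3. PBLD, which also overlaps HNRNPH3, had 4.39 CPM in the knockout-labelled library and 4.71 CPM in the control (ratio 0.932; 0.680 to 1.27). COX20, which overlaps HNRNPU, had 12.3 and 7.86 CPM (ratio 1.56; 1.27 to 1.92).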
